A study of Homo sapiens with 6 samples.

Results

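The 56 genes described here encode the proteins that license origins of replication, unwind and copy DNA and supply its nucleotides. They were taken from the deposited count table by symbol, 56 of 23827 genes listed, and all 56 were counted deeply enough to be tested, with 301 to 19873 counts per gene and library. Polyadenylated RNA had been sequenced from A549, a long-established human line grown from a lung adenocarcinoma. Cells had spent 24 h with 20 mM lactic acid in the medium, or with phosphate-buffered saline (PBS) in equal amount. There were 3 libraries per group, which the labels call biological replicates. The labels name no further agent and no genetic change in either group. All libraries come from the same line, and lactate and acid cannot be told apart, because lactic acid brings both.

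As background, the origin recognition complex (ORC) marks origins in G1 phase, and CDC6 and CDT1 then load the MCM2 to MCM7 ring onto DNA. The kinase CDC7 with its partner DBF4, together with cyclin-dependent kinases, starts the ring, which unwinds DNA once CDC45 and the GINS complex have joined it. Polymerase alpha with primase lays primers, polymerases epsilon and delta extend them, and replication factor C (RFC) loads the sliding clamp PCNA that holds the polymerases on DNA. Many of these genes are activated together by E2F transcription factors as cells enter S phase.

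The libraries held 33492831 to 42938870 counts in genes, and mitochondrially encoded genes took 8.88% to 10.6% of them. The keratins KRT8 and KRT18, markers of epithelial cells, were abundant, while the lung lineage factor NKX2-1 was at 0 and the surfactant genes SFTPB and SFTPC had at most 3 counts in any library. Summed levels of 8 fibroblast markers were 139 to 152 CPM (counts per 1000000 counts of the scaled library) with PBS and 102 to 111 CPM with lactic acid. Most of that sum was COL1A1 and THY1, and COL1A2 and PDGFRB had at most 11 counts. Summed levels of 8 immune markers were 44.6 to 48.4 and 34.1 to 38.8 CPM, mostly CD68, with CD3E, LYZ and MS4A1 at 0 and PTPRC at no more than 2 counts. Summed levels of 8 epithelial markers were 2904 to 3160 CPM with PBS and 2767 to 2853 CPM with lactic acid, and KRT8 and KRT18 made up most of the sum. Within that list KRT8 did not pass the test (log2 fold change −0.05, adjusted p = 0.266, edgeR), and KRT18 fell by 0.20. The adhesion genes EPCAM and CDH1 fell by 1.01 (3.29 ± 0.501 to 1.62 ± 0.434 CPM) and by 0.77 (20.1 ± 2.00 to 11.8 ± 0.381 CPM) on the log2 scale, while KRT19 rose by 0.18. The 6 endothelial markers summed to 0.0594 to 0.505 CPM over all libraries. The part that the fibroblast, immune and epithelial sums play in the results below was not tested.

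The replication genes were lower together after lactic acid, by modest amounts. Of the 56 genes, 52 fell, 1 rose and 3 did not pass the test (quasi-likelihood F test of edgeR, Benjamini-Hochberg adjusted p under 0.05 over 15474 genes). Of all tested genes, 35.4% were called by the same rule, 16.7% lower (2584 genes) and 18.7% higher (2892 genes). On the log2(FPKM + 1) scale limma called 2533 lower and 1803 higher over all genes, and 49 and 0 of the 56. The median log2 fold change was −0.36 over the 56 genes, a change of −22.3%, against 0.0024 over all tested genes. Summed over the 56 genes, the level was 4683, 4650 and 4725 CPM in the PBS libraries and 3700, 3678 and 3795 CPM in the lactic acid libraries. The groups did not overlap for 49 genes that were lower with lactic acid and for 1 gene, ORC4, that was higher, while 23.1% and 24.4% of all tested genes were separated in these directions. The 6 genes whose groups overlapped were ORC2, DBF4, RPA3, CLSPN, RRM2 and CCNE2. In RNA pooled from many cells, fewer cells in S phase and less of each RNA per cell cannot be told apart.

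**Figure D1:**
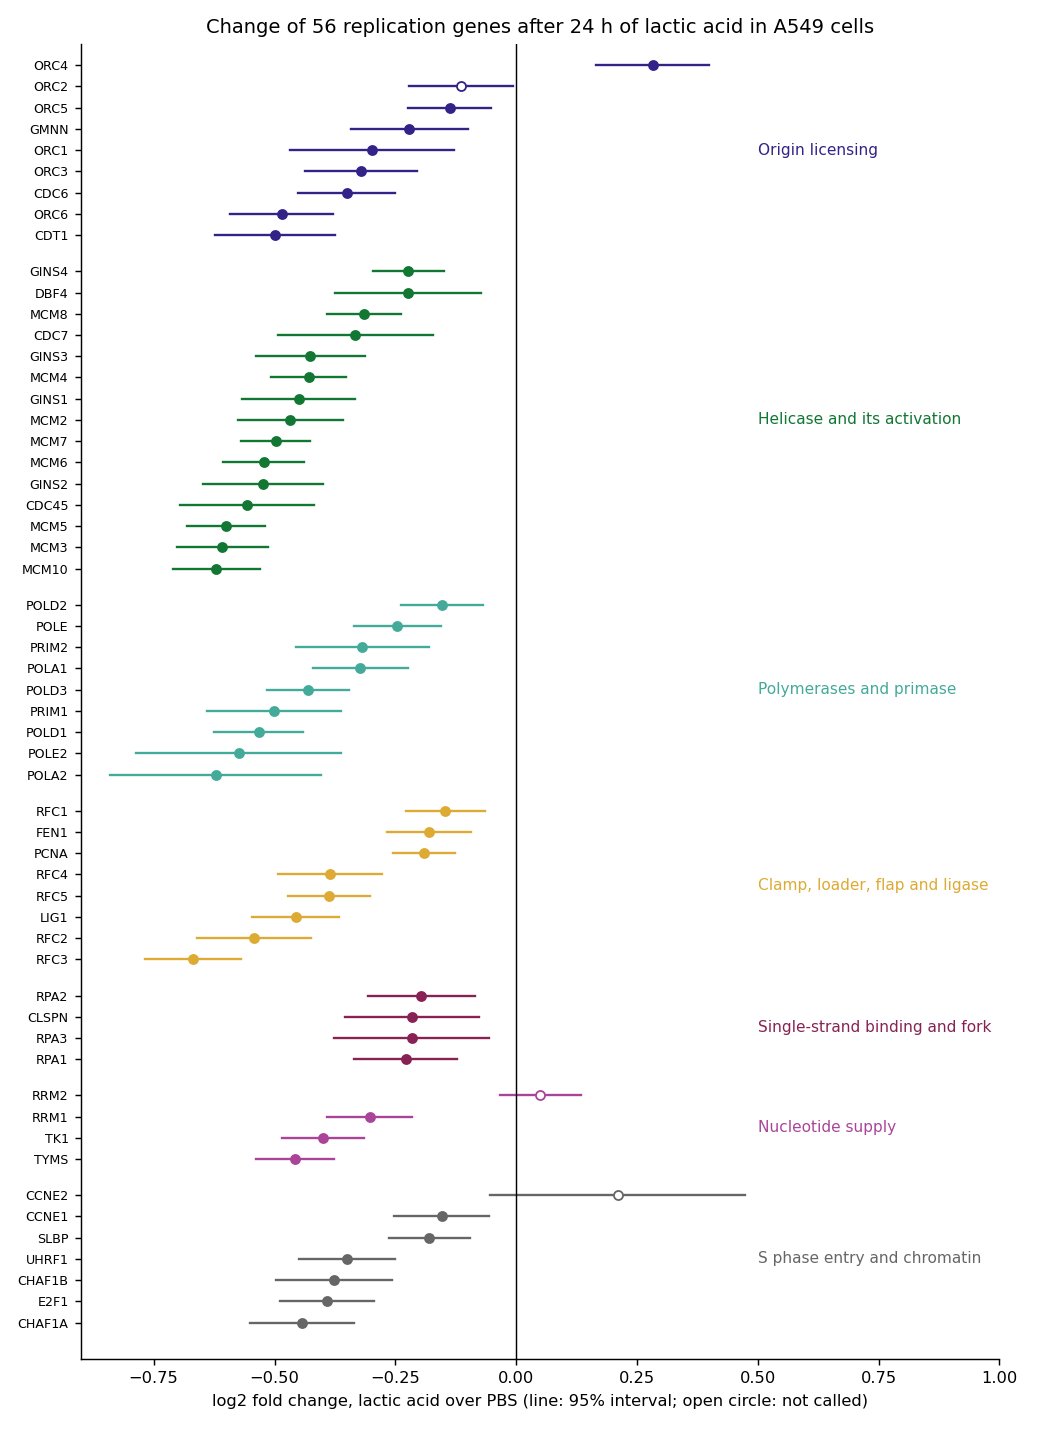
Log2 fold change of each of the 56 genes, lactic acid over PBS, by role (points) with its 95% interval (lines), from 3 libraries per group. Filled points passed the test and open points did not. Most points lie left of 0, ORC4, RRM2 and CCNE2 lie right of it, and ORC2, RRM2 and CCNE2 are open.

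The changes were small in size. They ran from −0.67 to 0.28 on the log2 scale, and 5 genes fell by at least 1.5-fold, namely RFC3, POLA2, MCM10, MCM3 and MCM5. Of all tested genes, 2.66% fell that far. This count was 3 without lactic acid replicate 2 and 8 without lactic acid replicate 3, and RFC3, MCM10 and MCM5 were in it under every alternative. Level and change had little relation among the 56 genes, with a Spearman correlation of −0.123 between log2 fold change and FPKM (fragments per kilobase of gene, scaled to library depth) in PBS, given as a description over genes that share the same libraries. By FPKM, a level per gene length, PCNA was the most abundant with PBS (356 ± 2.88, mean ± SD, n = 3) and CCNE2 the least (3.49 ± 0.697).

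The promoters of these genes are shown because E2F factors are the shared regulators that textbooks name for them. RefSeq (GRCh38.p14) gave promoter sequence from 250 bases before to 50 bases after the start for 49 of the 56 genes. The letters of an E2F site were searched on both strands, with overlapping matches counted: TTTCCCGC, TTTCGCGC, TTTGCCGC and TTTGGCGC. They were present in 22 of 49 promoters, or 44.9%, against 5.22% of the promoters of 10729 tested genes and 3.33% of all 27305 promoters listed. All 22 genes with the letters fell (median log2 fold change −0.45), as did 24 of the 27 without them (median −0.30). Among the other tested genes, 24.3% of 538 with the letters and 17.6% of 10142 without them fell. In the same order 15.6% and 20.3% rose, and the medians were −0.044 and 0.0057. The difference between genes with and without the letters was not tested. The stretches below are the 160 bases before the start given by RefSeq, 5′ to 3′ on the strand of the gene, with E2F letters in capitals, and other transcripts of a gene may begin elsewhere. They stand for 5 genes that fell and carry the letters in this stretch (MCM6, RFC3, POLA2, CDT1 and TYMS), for the E2F1 gene itself, for the gene that rose (ORC4) and for a gene that did not pass the test (RRM2). Their positions are MCM6 at chr2:135876444-135876603 (minus strand), RFC3 at chr13:33817989-33818148 (plus strand), POLA2 at chr11:65261802-65261961 (plus strand), CDT1 at chr16:88803629-88803788 (plus strand), TYMS at chr18:657493-657652 (plus strand), E2F1 at chr20:33686386-33686545 (minus strand), ORC4 at chr2:148021552-148021711 (minus strand) and RRM2 at chr2:10122579-10122738 (plus strand).
MCM6: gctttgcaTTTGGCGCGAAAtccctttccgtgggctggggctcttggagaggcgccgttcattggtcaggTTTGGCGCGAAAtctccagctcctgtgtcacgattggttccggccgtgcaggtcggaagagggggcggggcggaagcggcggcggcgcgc
RFC3: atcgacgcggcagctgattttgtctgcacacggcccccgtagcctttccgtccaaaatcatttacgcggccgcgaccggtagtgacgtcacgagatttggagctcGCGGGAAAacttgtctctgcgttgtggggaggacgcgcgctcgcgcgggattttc
POLA2: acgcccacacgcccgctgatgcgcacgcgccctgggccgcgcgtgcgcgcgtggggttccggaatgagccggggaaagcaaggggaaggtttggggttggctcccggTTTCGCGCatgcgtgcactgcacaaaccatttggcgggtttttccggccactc
CDT1: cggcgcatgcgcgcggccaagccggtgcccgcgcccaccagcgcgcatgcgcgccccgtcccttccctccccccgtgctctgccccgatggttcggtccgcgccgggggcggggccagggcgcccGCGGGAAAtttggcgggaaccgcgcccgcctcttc
TYMS: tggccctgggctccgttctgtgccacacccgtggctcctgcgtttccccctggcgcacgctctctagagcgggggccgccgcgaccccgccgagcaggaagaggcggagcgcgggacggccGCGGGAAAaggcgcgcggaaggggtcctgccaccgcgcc
E2F1: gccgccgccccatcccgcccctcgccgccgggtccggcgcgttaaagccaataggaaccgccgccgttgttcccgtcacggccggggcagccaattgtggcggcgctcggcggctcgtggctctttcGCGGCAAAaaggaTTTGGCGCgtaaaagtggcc
ORC4: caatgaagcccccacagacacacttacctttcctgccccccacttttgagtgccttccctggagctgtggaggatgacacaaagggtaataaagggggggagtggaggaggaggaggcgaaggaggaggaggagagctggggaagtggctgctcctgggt
RRM2: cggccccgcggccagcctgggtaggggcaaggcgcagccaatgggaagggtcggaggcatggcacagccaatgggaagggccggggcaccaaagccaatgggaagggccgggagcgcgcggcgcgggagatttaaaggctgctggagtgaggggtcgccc
MCM6 carried the run TTTGGCGCGAAA at a pair of places, each of which holds overlapping letters on both strands. E2F1 carried a pair of matches near its start, and ORC4 and RRM2 carried none in the whole window. A match describes letters and is not evidence of binding, and the lack of one says only that these letters are not in this window. The CCAAT letters stood in 55.1% of the 49 promoters and in 36.2% of tested promoters. The letters TTTGAA, the core of the cell cycle homology region of mitotic genes, stood in 4.08% and 9.79%, and the GC box letters GGGCGG in 73.5% and 69.5%.

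Origin licensing did not move as one. Of 9 genes, 7 fell, ORC4 rose and ORC2 did not pass the test, with a median log2 fold change of −0.30. ORC6, a subunit of the origin recognition complex that associates loosely with the others, stood at 42.9, 47.3 and 43.7 CPM with PBS and at 32.2, 32.6 and 30.8 CPM with lactic acid. All lactic acid libraries lay below all PBS libraries, and the log2 fold change was −0.49 (SE 0.0484, adjusted p = 1.51e-05, edgeR). CDT1, which brings the MCM ring to origins, was at 27.5, 29.7 and 28.9 CPM with PBS and 19.8, 21.0 and 20.1 CPM with lactic acid, again without overlap (log2 fold change −0.50, SE 0.0564, adjusted p = 4.11e-05). CDC6, the ATPase that works with CDT1, fell by 0.35 on the log2 scale (82.2 ± 1.60 to 64.5 ± 4.02 CPM, mean ± SD, n = 3 per group). On the log2(FPKM + 1) scale CDC6 changed by −0.38 with an adjusted p of 0.0632 (limma).

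Geminin, encoded by GMNN, binds CDT1 and blocks licensing after S phase has begun. GMNN was at 33.2, 31.2 and 30.2 CPM with PBS and 28.4, 26.9 and 25.9 CPM with lactic acid, lower in all 3 treated libraries (log2 fold change −0.22, adjusted p = 0.00843). Counted against GMNN in the same library, CDT1 gave a ratio of 0.828, 0.952 and 0.958 with PBS and 0.697, 0.780 and 0.779 with lactic acid. The groups did not overlap (exact two-sided permutation p = 0.1, the smallest that 3 libraries against 3 allow, and 0.12 adjusted over 6 ratios). The 6 ratios were chosen with earlier results of these data known.

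Subunits of the origin recognition complex differed in whether they were called. ORC1, the subunit whose protein is destroyed after G1 in human cells, was at 22.5, 22.3 and 26.2 CPM with PBS and 18.1, 20.0 and 19.7 CPM with lactic acid. It was lower without overlap (log2 fold change −0.30, SE 0.0776, adjusted p = 0.0109). ORC2, a stable core subunit, was at 40.7, 38.6 and 40.3 CPM with PBS and 35.3, 39.3 and 35.9 CPM with lactic acid. Its groups overlapped through lactic acid replicate 2, with a log2 fold change of −0.11 (95% interval −0.22 to −0.01, adjusted p = 0.0957, edgeR), an interval for ORC2 alone that does not reach 0 while the adjusted p misses the threshold. Without that library ORC2 passed the test (−0.17, adjusted p = 0.0219). The ratio of ORC1 to ORC2 counts was 0.552, 0.577 and 0.650 with PBS and 0.512, 0.510 and 0.548 with lactic acid, lower without overlap (exact permutation p = 0.1, adjusted 0.12).

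ORC3 fell by 0.32 and ORC5 by 0.14 on the log2 scale. The call of ORC5 was lost without PBS replicate 2 (−0.15, adjusted p = 0.0535) and with DESeq2 (adjusted p = 0.0826). ORC4, the subunit on chromosome 2 from 147930397 to 148021604 (GRCh38, minus strand), was the exception in the other direction. It stood at 25.4, 23.8 and 25.1 CPM with PBS and at 30.6, 28.7 and 31.1 CPM with lactic acid. All 3 treated libraries were above all 3 controls, with a log2 fold change of 0.28 (SE 0.0532, adjusted p = 0.00154, edgeR). On the log2(FPKM + 1) scale its change was 0.19 with an adjusted p of 0.0622 (limma), so the call was lost there. ACVR2A lies on the opposite strand over 4.82% of the exonic bases of ORC4, and the strand setting of the counting is not given in the sources used here.

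Every gene of the replicative helicase and its activation fell, 15 of 15, with a median log2 fold change of −0.47. MCM5, a subunit of the ring, was at 88.4, 92.5 and 93.8 CPM with PBS and 61.1, 59.3 and 60.7 CPM with lactic acid. The separation was wide against the spread within groups (log2 fold change −0.60, SE 0.0368, adjusted p = 3.9e-07, edgeR). MCM7, the most abundant subunit by FPKM, was at 276, 282 and 282 CPM with PBS and 199, 194 and 202 CPM with lactic acid (log2 fold change −0.50, SE 0.0325, adjusted p = 6.12e-07). The other ring subunits fell by 0.61 (MCM3), 0.52 (MCM6), 0.47 (MCM2) and 0.43 (MCM4) on the log2 scale, so that the 6 subunits lay between −0.43 and −0.61 with a median of −0.51. A transcript on the opposite strand is annotated over 22.7% of the exonic bases of MCM2.

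Per gene length the ring subunits kept the same order in both groups. With PBS the FPKM was 89.8 ± 1.54 for MCM7, 63.8 ± 0.898 for MCM4, 42.1 ± 0.892 for MCM3, 29.7 ± 0.749 for MCM6, 26.1 ± 1.48 for MCM2 and 24.7 ± 1.04 for MCM5 (mean ± SD, n = 3). MCM2 and MCM5 were closer to each other than the SD of MCM2, and the other neighbours were farther apart than their SDs. With lactic acid the values were 62.0 ± 1.59, 46.1 ± 1.77, 26.8 ± 1.40, 20.2 ± 0.473, 18.3 ± 1.06 and 15.8 ± 0.293 in the same order. The summed FPKM of the 6 subunits was 276 ± 4.31 with PBS and 189 ± 5.55 with lactic acid. The ratio of the highest to the lowest subunit was 3.64 ± 0.0941 and 3.92 ± 0.0403, so the transcripts of a ring that holds its subunits in equal number differed in level by that much in both groups.

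**Figure D2:**
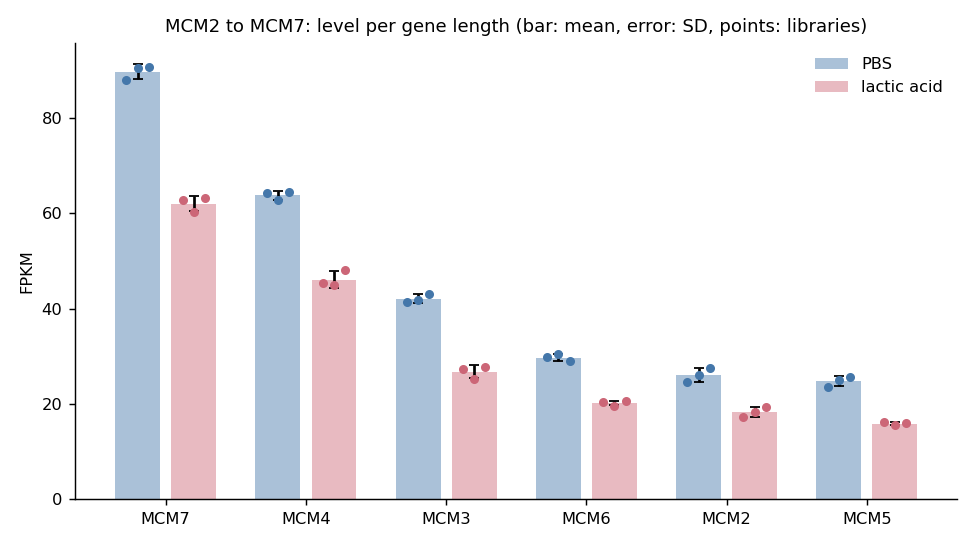
FPKM, a level per gene length, of the 6 subunits of the MCM ring in PBS and lactic acid (bars from 0, mean; lines, SD; points, the 3 libraries of each group). MCM7 was highest and MCM5 lowest in both groups, and every subunit was lower with lactic acid.

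The proteins that complete or start the helicase fell as well. CDC45 fell by 0.56 on the log2 scale (32.7 ± 2.53 to 22.2 ± 0.890 CPM), and MCM10, which helps the completed helicase to leave the origin, fell by 0.62 (59.4 ± 0.255 to 38.7 ± 1.79 CPM, adjusted p = 6.68e-07). The GINS subunits fell by 0.52 (GINS2), 0.45 (GINS1), 0.43 (GINS3) and 0.22 (GINS4), with GINS4 apart from the other subunits. A transcript on the opposite strand is annotated over 21.2% of the exonic bases of GINS4, and another over 10.9% of those of GINS3. MCM8, a relative of the ring subunits known from recombination repair, fell by 0.31. CDC7 fell by 0.33, and its partner DBF4 was lower with overlapping groups (40.0 ± 3.94 to 34.3 ± 1.91 CPM, log2 fold change −0.22, adjusted p = 0.0246). The call of DBF4 was lost without PBS replicate 1 (−0.19, adjusted p = 0.0803), without PBS replicate 3 (−0.19 and 0.0919) and without lactic acid replicate 3 (−0.18 and 0.085). It was also lost on the log2(FPKM + 1) scale (−0.15 and 0.108, limma).

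All 9 genes of the replicative polymerases and primase fell, with groups that did not overlap and a median log2 fold change of −0.43. POLD1, the catalytic subunit of polymerase delta, was at 77.5, 84.8 and 81.4 CPM with PBS and 54.3, 57.8 and 56.2 CPM with lactic acid. Treated libraries were well below all controls (log2 fold change −0.53, SE 0.0420, adjusted p = 2.56e-06, edgeR). POLD3, an accessory subunit of the same enzyme, was at 61.1, 62.8 and 58.7 CPM with PBS and 44.7, 44.5 and 46.2 CPM with lactic acid (log2 fold change −0.43, SE 0.0386, adjusted p = 6.54e-06). POLD2, the subunit that links these, fell less, by 0.15. AC020909.1, a protein-coding gene on the same strand, covers 8.64% of the exonic bases of POLD1.

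POLE, the catalytic subunit of polymerase epsilon, was at 85.3, 86.4 and 92.3 CPM with PBS and 73.2, 72.9 and 76.6 CPM with lactic acid (log2 fold change −0.25, SE 0.0410, adjusted p = 0.000681). Its partner POLE2 fell by 0.57. The ratio of POLE to POLD1 counts was 1.10, 1.02 and 1.13 with PBS and 1.35, 1.26 and 1.36 with lactic acid, higher in all treated libraries (exact permutation p = 0.1, adjusted 0.12 over 6 ratios).

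In the complex that primes synthesis, POLA1, the catalytic subunit of polymerase alpha, fell by 0.32, and the primase subunits PRIM1 and PRIM2 fell by 0.50 and 0.32. AC117378.1, a protein-coding gene on the same strand, covers 14.9% of the exonic bases of PRIM1. POLA2, the regulatory subunit, varied most between libraries of this role. It was at 45.3, 36.6 and 46.5 CPM with PBS and 31.9, 24.5 and 27.3 CPM with lactic acid. Groups were separate, with a log2 fold change of −0.62 (SE 0.0999, adjusted p = 0.00053, edgeR). A protein-coding gene on the same strand, AP000944.2, covers 35.1% of the exonic bases of POLA2. Summed with it, an alternative chosen after seeing the data, the change was −0.45 (adjusted p = 3e-05), which is under 1.5-fold.

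At the clamp and its loader 8 of 8 genes fell, with a median log2 fold change of −0.39 and no overlap between groups. RFC3, a small subunit of the clamp loader, was at 71.0, 64.0 and 69.1 CPM with PBS and 41.9, 42.0 and 44.5 CPM with lactic acid. This was the largest fall among the 56 genes in edgeR (log2 fold change −0.67, SE 0.0453, adjusted p = 8.36e-07). RFC3 is located on chromosome 13 from 33818049 to 33966558 (GRCh38, plus strand). The other small subunits fell by 0.54 (RFC2), 0.39 (RFC5) and 0.38 (RFC4). RFC4 was at 36.0, 38.9 and 35.6 CPM with PBS and 27.6, 28.6 and 28.4 CPM with lactic acid.

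RFC1, the large subunit, was at 64.2, 61.7 and 61.7 CPM with PBS and 58.5, 55.0 and 55.9 CPM with lactic acid, a smaller fall (log2 fold change −0.15, SE 0.0373, adjusted p = 0.00947, edgeR). Its ratio to RFC4 was 1.78, 1.58 and 1.73 with PBS and 2.12, 1.92 and 1.97 with lactic acid, higher without overlap (exact permutation p = 0.1, adjusted 0.12). RFC1 serves only the PCNA loader, while the small subunits are shared with loaders used at checkpoints and in cohesion.

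PCNA, the clamp, fell by 0.19 (505 ± 8.35 to 442 ± 8.0 CPM, adjusted p = 0.000377). DNA ligase I, encoded by LIG1, seals nicks between lagging strand fragments. LIG1 was at 80.4, 80.6 and 85.6 CPM with PBS and 57.9, 59.3 and 62.5 CPM with lactic acid, a log2 fold change of −0.46 (SE 0.0414, adjusted p = 7.15e-06) with all treated libraries below the controls. FEN1, the flap nuclease that acts just before the ligase, fell by 0.18. FADS2, on the same strand, covers 1.98% of the exonic bases of FEN1 and rose (log2 fold change 0.77). TMEM258 lies on the opposite strand over 6.70% of them. PCNA has 3 annotated pseudogenes and RFC3, RFC5 and FEN1 have 1 each. Among the genes of other roles RRM2 and RPA2 have 3 each, TYMS has 2, and DBF4 and POLD2 have 1 each. How reads with several matches were counted is not given in the sources used here.

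Single-strand binding and fork protection showed the smallest falls among the roles in which every gene was called, 4 of 4 with a median log2 fold change of −0.22. RPA1, the large subunit of replication protein A, which coats unwound DNA, was at 171, 162 and 169.8 CPM with PBS and 143, 133 and 152 CPM with lactic acid. The groups were separate (log2 fold change −0.23, SE 0.0483, adjusted p = 0.00322, edgeR). RPA2 was at 39.0, 37.8 and 38.7 CPM with PBS and 31.6, 33.3 and 35.9 CPM with lactic acid, also separate (log2 fold change −0.20, SE 0.0506, adjusted p = 0.0102).

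RPA3 and CLSPN, the latter encoding the checkpoint mediator claspin, had overlapping groups. RPA3 changed by −0.22 (adjusted p = 0.0383) and lost its call without PBS replicate 1 (−0.21, adjusted p = 0.101), PBS replicate 3 (−0.19 and 0.114), lactic acid replicate 1 (−0.23 and 0.0671) or lactic acid replicate 3 (−0.15 and 0.119). CLSPN changed by −0.22 (adjusted p = 0.0202) and lost its call without PBS replicate 1 (−0.18, adjusted p = 0.0688), lactic acid replicate 2 (−0.17 and 0.0742) or lactic acid replicate 3 (−0.20 and 0.0604). On the log2(FPKM + 1) scale the adjusted p of CLSPN was 0.0528 (limma).

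**Figure D3:**
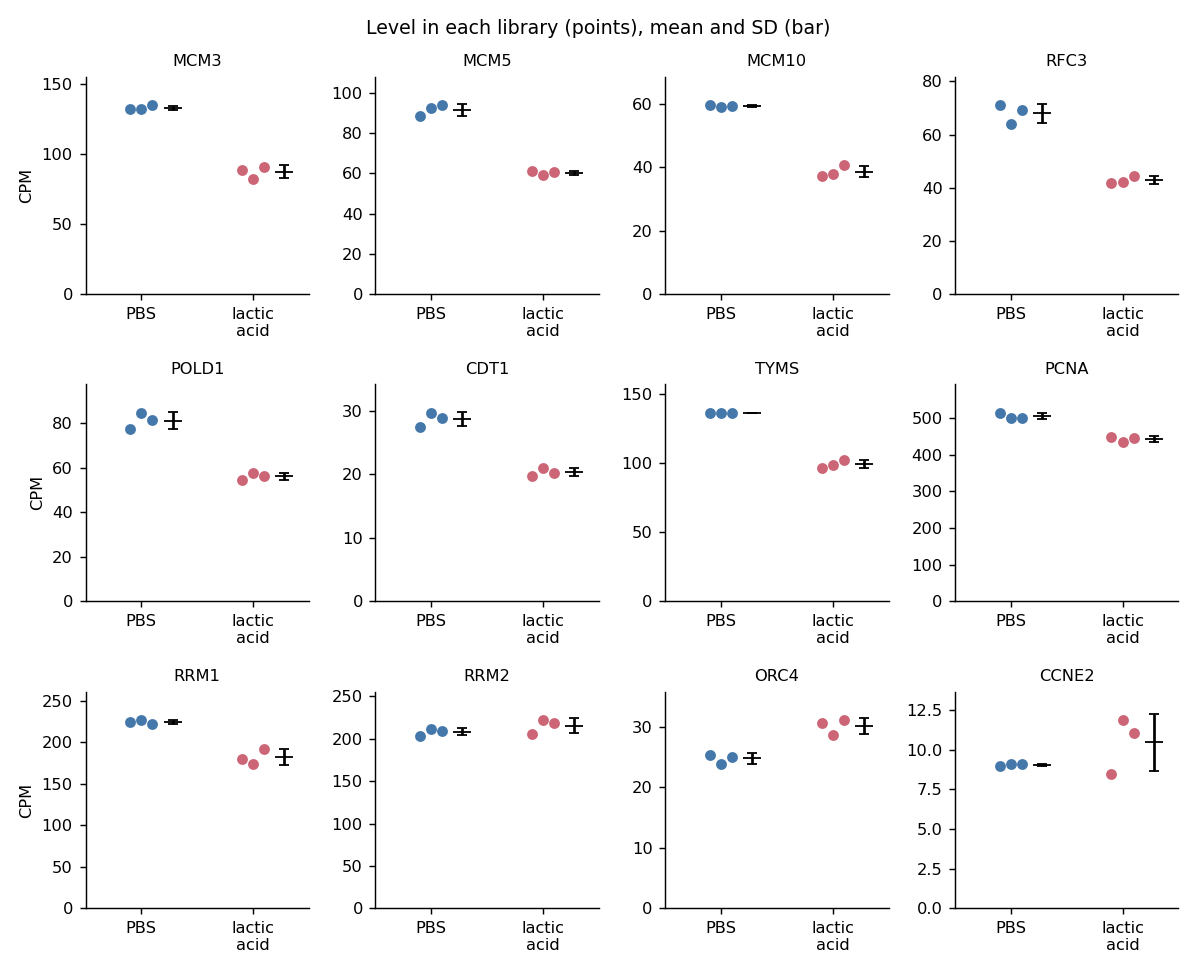
CPM of 12 of the 56 genes in each of the 3 PBS and 3 lactic acid libraries (points), with the mean and SD of each group (bars beside the points). Groups are separate and lower with lactic acid for most, overlap for RRM2 and CCNE2, and are separate and higher for ORC4.

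Among the enzymes of nucleotide supply 3 of 4 fell and RRM2 did not pass the test. TYMS, thymidylate synthase, was at 136, 136 and 136 CPM with PBS and 96.2, 98.8 and 102 CPM with lactic acid. The treated libraries were lower by far more than the spread of either group (log2 fold change −0.46, SE 0.0367, adjusted p = 2.86e-06, edgeR). ENOSF1 lies on the opposite strand over 39.1% of the exonic bases of TYMS and rose (log2 fold change 0.35), and without a stated strand setting reads of the pair cannot be told apart. TK1, the cytosolic thymidine kinase that salvages thymidine, was at 120.3, 129 and 125 CPM with PBS and 92.6, 94.6 and 96.4 CPM with lactic acid, without overlap (log2 fold change −0.40, SE 0.0388, adjusted p = 1.21e-05).

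Ribonucleotide reductase makes deoxyribonucleotides and needs both of its subunits, RRM1, the catalytic one, and RRM2, which carries the radical. RRM1 was at 225, 227 and 222 CPM with PBS and 179.6, 174 and 192 CPM with lactic acid, lower in all treated libraries (log2 fold change −0.30, SE 0.0404, adjusted p = 0.00014, edgeR). RRM2 was at 204, 211 and 209.6 CPM with PBS and 206, 222 and 219 CPM with lactic acid. The groups overlapped, with a log2 fold change of 0.05 (95% interval −0.03 to 0.13, adjusted p = 0.341), an interval that lies above the falls of RRM1, TYMS and TK1. The ratio of RRM2 to RRM1 counts was 0.905, 0.930 and 0.944 with PBS and 1.14, 1.28 and 1.14 with lactic acid, higher without overlap (1.28-fold between the groups, exact permutation p = 0.1, adjusted 0.12). Summing RRM2 with AC007240.1, which covers 20.2% of its exonic bases on the same strand, left the change at 0.05. RRM2 also has 3 annotated pseudogenes.

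**Figure D4:**
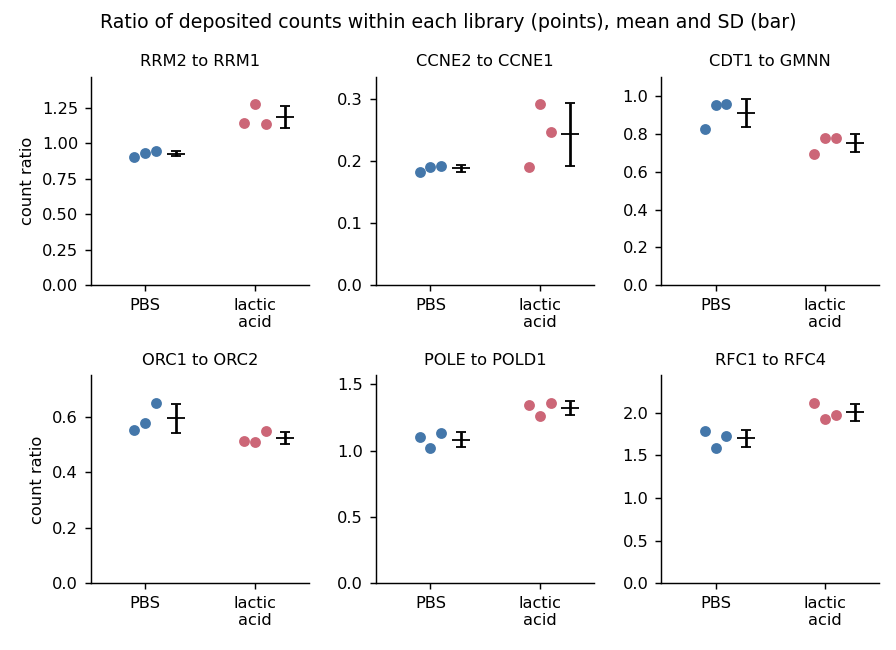
Count ratios of 6 pairs of genes in each of the 3 PBS and 3 lactic acid libraries (points), with the mean and SD of each group (bars beside the points). RRM2 to RRM1, POLE to POLD1 and RFC1 to RFC4 were higher with lactic acid without overlap, CDT1 to GMNN and ORC1 to ORC2 lower without overlap, and CCNE2 to CCNE1 overlapped.

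Of the 7 genes of S phase entry and of chromatin behind the fork, 6 fell and CCNE2 did not pass the test, with a median log2 fold change of −0.35. CHAF1A, the large subunit of chromatin assembly factor 1, which deposits histones on new DNA, was at 42.2, 44.5 and 44.6 CPM with PBS and 32.7, 30.3 and 33.7 CPM with lactic acid. It was lower in every treated library (log2 fold change −0.44, SE 0.0493, adjusted p = 3.62e-05, edgeR). E2F1, the activator whose own promoter is printed above, was at 47.3, 47.3 and 51.2 CPM with PBS and 36.0, 37.8 and 37.3 CPM with lactic acid (log2 fold change −0.39, SE 0.0446, adjusted p = 4.37e-05). CHAF1B, the partner of CHAF1A, fell by 0.38, and UHRF1, which reads hemimethylated DNA for maintenance methylation, by 0.35. SLBP, which binds the stem-loop of replication-dependent histone mRNA, fell by 0.18, and by 0.29 on the log2(FPKM + 1) scale (adjusted p = 0.00412, limma).

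The E cyclins, partners of CDK2 at the start of S phase, were a low and a moderate transcript. CCNE1 was at 49.3, 47.9 and 47.3 CPM with PBS and 44.3, 40.7 and 44.8 CPM with lactic acid, lower without overlap (log2 fold change −0.15, SE 0.0447, adjusted p = 0.0191, edgeR). Its call was lost without PBS replicate 1 (−0.14, adjusted p = 0.0558) or lactic acid replicate 2 (−0.12 and 0.0661). CCNE2 was at 8.99, 9.09 and 9.10 CPM with PBS and 8.45, 11.9 and 11.1 CPM with lactic acid, so that lactic acid replicate 1 lay below and the other treated libraries above the controls. The log2 fold change was 0.21 (95% interval −0.05 to 0.47, adjusted p = 0.202). Without lactic acid replicate 1 CCNE2 passed the test (0.34, adjusted p = 0.0224), which brings the count of genes that rose to 2. Its change was 0.10 without lactic acid replicate 2 (adjusted p = 0.574). With limma on log2(FPKM + 1) CCNE2 changed by 0.03 (adjusted p = 0.883). The ratio of CCNE2 to CCNE1 counts was 0.182, 0.190 and 0.192 with PBS and 0.191, 0.291 and 0.247 with lactic acid, with overlap (exact permutation p = 0.2). INTS8 lies on the opposite strand over 37.0% of the exonic bases of CCNE2.

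Other genes of replication, taken from lists of the same processes and chosen with earlier results of these data known, were lower in 60 of 109 cases. Of these 109 genes 7 rose and 42 did not pass the test, with a median log2 fold change of −0.19. Across all tested genes 16.7% fell and 18.7% rose. The number of the 109 that rose was 4 without PBS replicate 1 and 4 without lactic acid replicate 2. Of 16 further genes of licensing and firing 11 fell and none rose (edgeR), among them DTL, which marks CDT1 for destruction (log2 fold change −0.55), RECQL4 (−0.47), CCNA2, the S phase cyclin (−0.40), and CDK2 (−0.30). Of 24 further genes of the fork 19 fell and 1 rose. TOP2A, the topoisomerase that untangles daughter strands, fell from 1169.6 ± 30.1 to 829 ± 13.4 CPM (−0.50), and WDHD1, which links the helicase to polymerase alpha, by 0.52. POLE4, a small histone-fold subunit of polymerase epsilon, was the gene that rose (13.1 ± 1.72 to 17.0 ± 1.81 CPM, log2 fold change 0.38, adjusted p = 0.0181).

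Further genes of nucleotide supply fell in 9 of 19 cases and rose in none (edgeR), and all values lay between −0.44 and 0.09 on the log2 scale. SLC29A1, a nucleoside transporter, fell by 0.44, CTPS1, which makes CTP, by 0.40, GMPS, which makes GMP, by 0.33 and DUT, which removes dUTP, by 0.30. Of 12 genes of the replication checkpoint 3 fell and 2 rose, shares close to those of all tested genes, of which 16.7% fell and 18.7% rose. WEE1, the kinase that restrains CDK1 and CDK2, fell by 0.62 on the log2 scale (57.4 ± 1.05 and 37.3 ± 1.40 CPM, adjusted p = 5.85e-07). RAD9A, part of the checkpoint clamp, fell by 0.49. CDKN1A, the inhibitor p21, rose by 0.49 on the log2 scale (151 ± 6.24 and 213 ± 4.42 CPM, adjusted p = 2.62e-06), and CDC25B, a phosphatase that activates CDKs, rose by 0.17.

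For the lists that follow, the shares over all tested genes were 16.7% lower and 18.7% higher. Of 15 genes of the E2F and RB families 5 fell and 1 rose. RBL1, the pocket protein p107, fell by 0.44 and E2F4, its usual partner, by 0.39, while LIN54, a DNA-binding subunit of the DREAM complex, rose by 0.18. Histone chaperones and related genes fell in 8 of 13 cases, with NASP at −0.37 and SUPT16H at −0.32, and TLK1, a kinase of histone chaperones, rose by 0.18. Of 10 genes of translesion synthesis and related polymerases 5 fell and 2 rose, and the rises are close to the share over all tested genes. RAD18, the ligase that marks PCNA at damaged sites, fell by 0.36 and POLQ by 0.26, whereas POLB and POLI rose by 0.31 and 0.17.

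**Figure D5:**
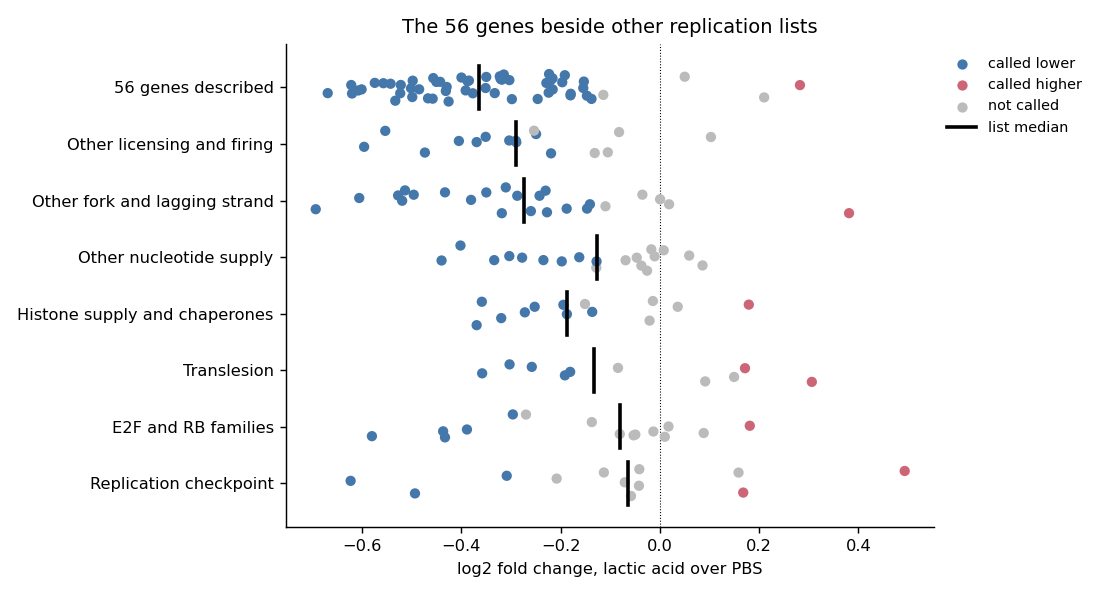
Log2 fold changes, lactic acid over PBS, of the 56 genes and of the genes of 7 other lists of replication processes (points, genes; bars, medians). The median was −0.36 for the 56 genes and lay between −0.29 and −0.06 for the other lists.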

How the data were processed

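RNA of 6 A549 libraries was measured, 3 with PBS and 3 with lactic acid. The authors deposited whole-number counts per gene and FPKM per gene. Per the submitters' processing notes, which state neither versions nor roles, the build was GRCh38 and the listed tools are HISAT2, StringTie and DESeq2. Annotation, strandedness and the handling of multiply matching reads were not found in the labels or headers. The labels call the control columns WT and the deposited tables NS, and the link was made by library name. Ensembl identifiers of all 56 genes matched GENCODE release 29 (GRCh38), which gave positions and overlaps, and each symbol was the same there. Nothing in the labels says that replicates came from separate cultures beyond the word biological, so p-values measure the spread between these libraries.

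Counts were tested in edgeR 4.0.16 (R 4.3.3) by its quasi-likelihood F test, two-sided, on group alone, with TMM factors of 0.988 to 1.02. Genes were kept by filterByExpr (minimum count 10, minimum total 15), and Benjamini-Hochberg adjustment ran over 15474 genes, with calls under 0.05. CPM are counts per 1000000 of the TMM-scaled library. SEs were derived from the log2 fold change and its F statistic. Errors beside means are SDs over 3 libraries. No library was a repeat of another (within groups, chi-square over its degrees of freedom was 6.27 to 9.11).

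Alternatives were RLE factors, library totals alone, no filter, 50 counts in 3 libraries, each library left out, the replicate number as a block, limma-voom (limma 3.58.1), DESeq2 1.42.0, and limma-trend on log2(FPKM + 1) or log2(FPKM + 0.1), filtered at an FPKM of 1 in 3 libraries, and on log2(FPKM + 1) unfiltered. Leaving out 3853 unnamed loci and summing overlapping genes of the same strand were chosen after seeing the data. The genes, lists and ratios were chosen with earlier results of these data known. Values in every library are given for the 2 genes of each role with the smallest p, for genes not called or higher, and for genes of the 6 ratios. POLA2, shown for its spread, was added after its values were seen. Of the other lists up to 4 genes with the smallest p and a mean of at least 1 CPM were named, or up to 2 in each direction.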

Additional observations from a re-analysis of the deposited data

How the results depend on the processing

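Over 18 alternatives, 0 of 1008 log2 fold changes of the 56 genes, called or not, differed in sign from the edgeR value given above. The side of the threshold was kept in all alternatives by 47 genes. The number that fell was 48 to 52. The number that rose was 1 to 2 when 1 library was left out, and 0 on each of the 3 FPKM scales. The median log2 fold change of the 56 genes was −0.364 in the main fit. It ran from −0.353 without PBS replicate 3 to −0.397 without lactic acid replicate 3. Over all genes the rises numbered 2892 with edgeR, 1803 on log2(FPKM + 1), 1798 on log2(FPKM + 0.1) and 1618 on log2(FPKM + 1) with no filter. Rises among the 109 other replication genes numbered 7, 4 to 6 when 1 library was left out and 4 on log2(FPKM + 1) with no filter. The causes were not tested. The 6 ratios were recomputed from FPKM and with each library left out, and kept their direction in these. With the replicate block their differences are unchanged by construction, so that setting says nothing on direction. Its exact sign-flip p was 0.25 for each ratio, the smallest that 3 pairs allow. Same-numbered libraries did not deviate together (correlations −0.0293 to 0.0742), and with the replicate block 52 of the 56 genes fell and 1 rose. With 3 libraries a group, small changes of low transcripts such as CCNE2 stay imprecise, and genes with overlapping or near-identical copies are uncertain.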

Other observations

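Some replication genes have a neighbour transcribed the other way that starts nearby. Each of 21 of the 56 genes had a protein-coding neighbour on the opposite strand that started within 1000 bases of its own start, and 19 of these neighbours were tested. Of the 19 neighbours 5 fell, 2 rose and 12 did not pass the test (edgeR), with a median log2 fold change of −0.03. Their 19 partners among the replication genes had a median of −0.32, 17 of them fell, and 16 lay below their neighbour. Exons of some pairs overlap, such as MCM7 and AP4M1 (392 bases) and PRIM1 and HSD17B6 (132 bases). Without a stated strand setting, reads from such overlaps cannot be told apart. Of all tested genes 16.7% fell and 18.7% rose, and 9998 of 15474 did not pass the test, so the number of neighbours not called is close to the background.

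CDC45 fell by 0.56 on the log2 scale while UFD1, whose start lies 244 bases away, rose by 0.21 (adjusted p = 0.00298, edgeR). PCNA fell by 0.19 and CDS2, 160 bases away, rose by 0.15 (adjusted p = 0.00507). ORC6 fell by 0.49 and VPS35, 125 bases away, stood at 0.02 (adjusted p = 0.671). MCM4 fell by 0.43 and PRKDC, which starts 2 bases away, fell by 0.24 (adjusted p = 7.5e-05). Also lower with their partners were PRPF38A (−0.24, beside ORC1 at −0.30) and RARS2 (−0.24, beside ORC3 at −0.32). SMYD4 (−0.19, beside RPA1 at −0.23) and HSD17B6 (−1.21, beside PRIM1 at −0.50) fell as well. HSD17B6 was a low transcript, with a mean of 2.25 CPM over all libraries. ORC4 rose and MBD5, 593 bases away, stood at −0.03. These neighbours were chosen after their values were seen, and the differences within pairs were not tested.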
